A study of Rattus norvegicus with 372 samples.

Results

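The constitutive CYP2 enzymes of rat hepatocytes were examined in this series through 10 genes, namely Cyp2c11, Cyp2c7, Cyp2c13, Cyp2c22, Cyp2e1, Cyp2a1, Cyp2a2, Cyp2d4, Cyp2d5 and Cyp2j4. The members were found by name: a probe counted for a gene when the part of its name before the number equalled the gene symbol, ignoring case. Of the 10 genes, 8 had a probe in the whole transcriptome (WT) table, which holds 20946 genes, and 6 had one in the smaller surrogate transcriptome (ST) table of 2604 genes. In all, 9 genes were found in at least 1 table and 5 in both. Cyp2a1 was found only in the ST table, and Cyp2a2 was named by no probe in either table.

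The series holds 28 treatments, a low and a high concentration of each of 14 chemicals, given in medium with 0.5% DMSO. The cells were primary hepatocytes of male Wistar rats, grown in 96-well plates under a collagen overlay (sandwich culture). Exposure lasted 24 h. The low and high concentrations in µM were 400 and 10000 for acetaminophen, caffeine, isoniazid and valproic acid, 18 and 450 for chloramphenicol, 16 and 400 for diclofenac, 0.08 and 2 for doxorubicin, 12 and 300 for indomethacin, 0.6 and 15 for ketoconazole, 80 and 2000 for naproxen, 160 and 4000 for ranitidine, 2.4 and 60 for simvastatin, 4 and 100 for sulfasalazine, and 8 and 200 for WY14643. Each treatment had 3 wells in each of 2 batches, and each batch was the hepatocytes of 1 rat with its own library preparation and sequencing run. Vehicle wells with DMSO numbered 3 in batch 1 and 6 in batch 2, and wells with culture medium alone numbered the same. The medium of all wells contained insulin, epidermal growth factor and dexamethasone. The wells of a batch were technical replicates of 1 rat, and fits over wells count the well as the replicate. Their p-values rest on the spread between wells. In the main fit, which has batch as a term but no interaction, they also hold differences in response between the 2 rats. Rat, library preparation and sequencing run cannot be told apart.

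Enzymes of the CYP2 family sit in the membrane of the endoplasmic reticulum, take electrons from the reductase encoded by Por, and insert oxygen into drugs, steroids, fatty acids and retinoids. In rat liver several of them are sexually dimorphic: Cyp2c11 and Cyp2c13 are male-specific testosterone hydroxylases held up by the pulses of growth hormone, while Cyp2c7 and Cyp2a1 are higher in females. Their transcription depends on liver-enriched factors such as HNF4, HNF1 and C/EBP, and it is known to decline when hepatocytes are taken out of the liver. Cyp2e1, which oxidises ethanol and acetaminophen, is in addition strongly controlled at the level of its protein.

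Read depth was 2289425 to 8975207 reads per well in the WT assay and 558190 to 2210264 in the ST assay. All 8 members of the WT table passed the filter on low values, a mean of at least 10 reads over all wells, as did 10191 genes in all. Levels are given as CPM, the reads of a probe scaled to the same total in every library. Each member was read by 1 probe, so its value is the share of reads taken by that probe, and the probes of near-identical CYP2 paralogs may share reads. Hepatocyte markers dominated: 7 of the 8 listed were in the table and together took 37309 to 44628 CPM in vehicle wells. The other lists were far lower in vehicle wells, at 32.9 to 53.3 CPM for Kupffer cell and leukocyte markers, 20.2 to 130 for stellate cell and fibroblast markers, 1.61 to 3.39 for endothelial markers and 33.1 to 49.0 for biliary markers, and the duct keratin Krt7 was at 0 in every vehicle well. Most of the biliary sum was Epcam, at 27.3 to 44.3 CPM, and Sox9 was at 1.73 to 5.28. Krt19 reached at most 0.546 and Cftr at most 0.173.

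In vehicle wells of the WT assay, Cyp2c22 had the highest mean of the 8 members in both rats, and Cyp2c7 the lowest. Cyp2c13, Cyp2c11 and Cyp2c22 differed most between the hepatocytes of the 2 rats. Cyp2c22, a retinoic acid hydroxylase, was read at 319, 450 and 542 CPM in batch 1, with a mean of 437 ± 112 (SD, n = 3). In batch 2 its lowest, median and highest values were 116, 143 and 157, with a mean of 140 ± 16.1 (SD, n = 6). Cyp2c11 was read at 162, 172 and 144 in batch 1 and between 38.5 and 55.8 with a median of 47.8 in batch 2. Cyp2c13 showed the widest gap, with 32.3, 61.9 and 58.6 in batch 1 against 3.28 to 6.97 with a median of 4.34 in batch 2. The means of these 3 genes were 3.13-fold, 3.38-fold and 11.1-fold higher in batch 1, and no well of one batch overlapped those of the other. Cyp2d4 ran the other way, at 1.65-fold higher in batch 2.

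The order of levels differed between the rats. In batch 1, Cyp2c22 was followed by Cyp2c11 at 160 ± 14.2 (SD, n = 3), then by Cyp2c13 at 50.9 ± 16.2 and Cyp2d4 at 47.5 ± 7.63, whose wells overlapped. Lower still were Cyp2j4 at 15.8 ± 0.415, Cyp2d5 at 9.63 ± 2.35, Cyp2e1 at 3.17 ± 0.524 and Cyp2c7 at 1.44 ± 0.622, each apart from its neighbour. In batch 2 Cyp2d4 at 78.3 ± 4.11 (SD, n = 6) came next, followed by Cyp2c11 at 47.3 ± 8.39. Cyp2j4 at 16.6 ± 2.22, Cyp2d5 at 12.0 ± 3.04, Cyp2e1 at 6.71 ± 3.14, Cyp2c13 at 4.58 ± 1.28 and Cyp2c7 at 3.84 ± 2.23 formed a run in which each gene overlapped the next. These levels are reads of different probes, and the order is one of reads, not of transcript copies.

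**Figure D1:**
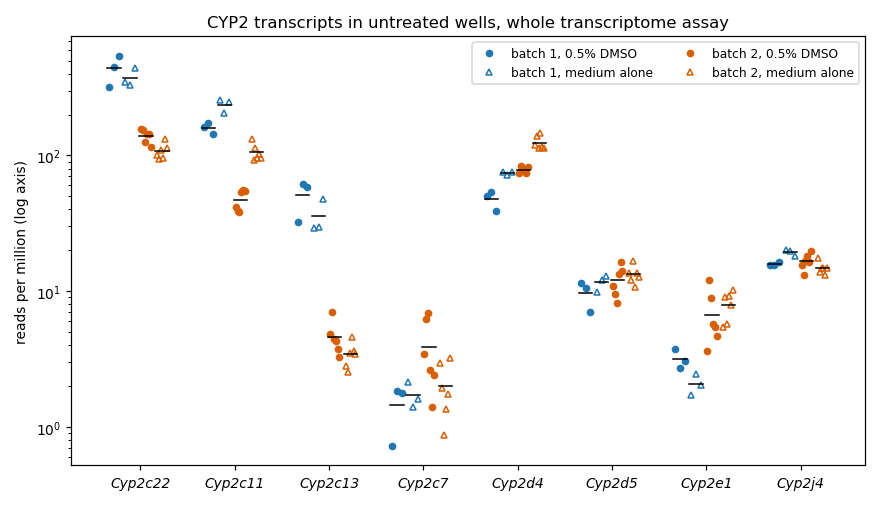
CPM of 8 CYP2 transcripts (vertical log axis) in each vehicle and medium-only well of the WT assay, by gene and batch; black lines are means. Cyp2c13 wells of batch 1 lie at 32.3 to 61.9 in vehicle and those of batch 2 at 3.28 to 6.97, while Cyp2j4 lies at 13.2 to 19.7 in the vehicle wells of both.

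Medium alone was compared with DMSO vehicle to see whether the solvent itself moved these transcripts. With edgeR's quasi-likelihood test and Benjamini-Hochberg adjustment over all genes, 2 of 8 members were higher in medium alone and 0 were lower, where 12.6% of all genes tested were called in either direction. The 0 also held in DESeq2, and at an unadjusted p under 0.05 it was likewise 0 in edgeR. Cyp2c11 was read at 206 to 255 in the medium wells of batch 1 and 93.0 to 132 in those of batch 2, above every vehicle well of the same batch. Its log2 fold change was 0.98 ± 0.25 (SE, adjusted p = 0.00317). In the ST assay it was 0.72 ± 0.25 (adjusted p = 0.0287), and there the batch 2 medium wells, at 66.7 to 193 CPM, overlapped vehicle, at 76.5 to 109. Cyp2d4 was higher by 0.74 ± 0.15 (adjusted p = 9.00e-05). With the rat as the unit neither passed (adjusted p = 0.697 for Cyp2c11 and 0.187 for Cyp2d4). The vehicle wells of batch 2 came from 2 plates, and for Cyp2c11 the plates separated, with 38.5 to 41.9 on one and 53.7 to 55.8 on the other. The vehicle wells of Cyp2d5, Cyp2c7 and Cyp2c13 also separated by plate. For Cyp2c7 they read 3.45 to 6.94 on one and 1.39 to 2.64 on the other. These separations were seen in WT reads, and Cyp2c7 has no ST probe. The plate with the higher Cyp2c13 mean differed between the assays. ST libraries from the same vehicle wells overlapped between plates for Cyp2c11 (77.3 to 78.9 and 76.5 to 109 CPM), Cyp2d5 and Cyp2c13. All comparisons with vehicle share these wells, and in batch 1 the plate with acetaminophen, chloramphenicol, indomethacin, ketoconazole, sulfasalazine and WY14643 held no vehicle wells.

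At the high concentrations, member transcripts moved in both directions. Of the 112 pairs of a member and a high concentration, 41 (36.6%) were called lower and 35 (31.2%) higher. The background was 25.5% lower and 25.4% higher over all pairs of gene and treatment. With the rat as the unit, where wells were added before the test, 32 of the 41 and 26 of the 35 were still called. In that fit, 36.8% of all pairs at the high concentrations were called in either direction. At the low concentrations 0 of 112 pairs were called lower, against a background of 4.50%. At an unadjusted p under 0.05 there were 4 in edgeR, and DESeq2 called 0 after adjustment. Higher calls at the low concentrations numbered 20 (17.9%) against 4.91% of all pairs, and 8 of the 20 were called per rat. The share of all pairs called per rat at the low concentrations was not computed, so the 8 have no background. Without the second well of each treatment they numbered 12.

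**Figure D2:**
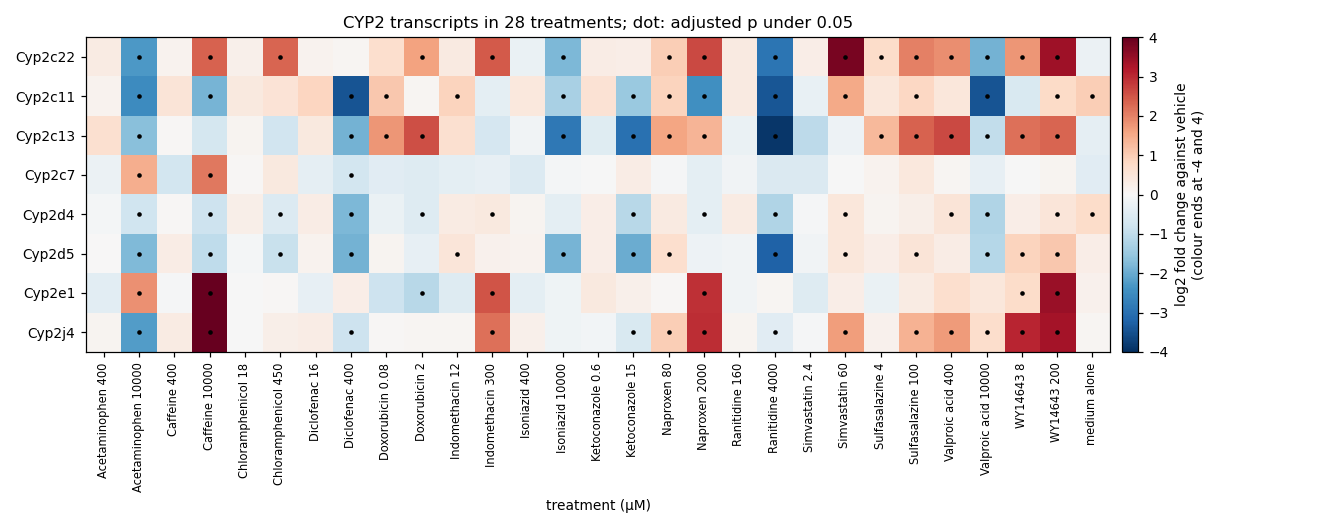
Log2 fold change against vehicle (colour, ending at -4 and 4) of 8 CYP2 transcripts (rows) in 28 treatments and medium alone (columns, µM), WT assay; dots mark an adjusted p under 0.05. The blue columns of ranitidine 4000 and diclofenac 400 hold 6 lower calls each, and the red column of WY14643 200 holds 7 higher calls.

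Cyp2c11, the main CYP of the adult male rat liver, fell in 8 of 14 high-concentration treatments and rose in 3. Its 3 largest changes were falls. After valproic acid at 10000 µM it was read at 4.58, 7.29 and 5.49 CPM in batch 1 and at 11.8, 11.8 and 8.48 in batch 2. Each of these wells lay below every vehicle well of its batch, and the log2 fold change was -3.46 ± 0.35 (SE, adjusted p = 1.87e-17, edgeR). Diclofenac at 400 µM left 4.01, 9.84 and 5.15 in batch 1 and 11.01, 9.43 and 7.20 in batch 2, a log2 fold change of -3.46 ± 0.35 (adjusted p = 2.09e-17). Ranitidine at 4000 µM left 4.49, 4.79 and 2.85 in batch 1 and 7.35, 11.1 and 8.36 in batch 2 (-3.43 ± 0.35, adjusted p = 5.42e-17). In all 3 treatments no treated well overlapped a vehicle well in either rat.

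Lower Cyp2c11 was also called after acetaminophen, naproxen, caffeine, ketoconazole and isoniazid at their high concentrations, with log2 fold changes from -2.51 to -1.30. Only the call for isoniazid was lost with the rat as the unit (adjusted p = 0.106). The rises were smaller. Simvastatin at 60 µM gave 138, 203 and 168 CPM in batch 1, which overlapped vehicle, and 294, 194 and 236 in batch 2, which did not (1.51 ± 0.27, adjusted p = 2.99e-06). None of the 6 higher calls of Cyp2c11, 3 at the high and 3 at the low concentrations, was called per rat, where the adjusted p lay between 0.188 and 1.

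Cyp2c13, the second male-specific gene, fell in 6 high-concentration treatments and rose in 4. Ranitidine at 4000 µM left 1.35, 0.710 and 0.669 CPM in batch 1 and 1.11, 0.957 and 1.26 in batch 2, below every vehicle well of both rats. The log2 fold change was -3.90 ± 0.53 (adjusted p = 6.71e-11). Ketoconazole at 15 µM left 1.78, 1.76 and 2.10 in batch 1 and 3.24, 0.948 and 1.76 in batch 2 (-2.97 ± 0.48, adjusted p = 4.00e-08). Isoniazid at 10000 µM left 2.36, 3.43 and 2.99 in batch 1 and 1.83, 1.88 and 2.35 in batch 2 (-2.87 ± 0.48, adjusted p = 1.72e-07). Against only the vehicle wells of the same plate in batch 2, the value for isoniazid was -1.48 (adjusted p = 0.0796).

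Cyp2c13 rose at 5 of the 14 low concentrations, 2 of them also per rat. Valproic acid at 400 µM gave 274, 166 and 277 CPM in batch 1 and 38.5, 37.8 and 33.4 in batch 2, all above vehicle, with a log2 fold change of 2.64 ± 0.33 (adjusted p = 9.03e-12). At 10000 µM the same chemical gave 24.5, 21.9 and 16.5 in batch 1 and 2.27, 5.08 and 5.12 in batch 2 (-0.97 ± 0.38, adjusted p = 0.0174). That fall, 1 of the 6 counted, was not called per rat (adjusted p = 0.215), in batch 2 alone (-0.42), with library totals (-0.71), against vehicle of the same plate in batch 2 (-0.67) or in the ST assay (-0.59, adjusted p = 0.168). It was also lost on leaving out the first or the third well of each treatment, or 1 of 2 vehicle wells of batch 1. The difference between the concentrations was -3.61 (adjusted p = 3.57e-15). WY14643, an activator of the receptor encoded by Ppara, raised Cyp2c13 by 2.22 at 8 µM and 2.32 at 200 µM. Doxorubicin at 0.08 µM raised it by 1.75 (adjusted p = 0.000828), but its batch 2 wells read 30.9, 91.3 and 15.7 and its batch 1 wells overlapped vehicle. Without the second well of each treatment that value was 1.13 (adjusted p = 0.534). In the ST assay, doxorubicin at 2 µM raised Cyp2c13 by 2.61 ± 0.36 (adjusted p = 3.49e-10), with all wells above vehicle in both batches. That rise at 2 µM was also called per rat (adjusted p = 0.0145).

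Cyp2c22 was the member called higher at the most high concentrations, 8 of 14, with 4 called lower, and all 12 calls held per rat. Simvastatin, an inhibitor of cholesterol synthesis, gave its largest rise: at 60 µM the wells read 4718, 4263 and 4183 in batch 1 and 2399, 1938 and 2316 in batch 2. The log2 fold change was 3.81 ± 0.22 (adjusted p = 8.55e-35), a 14.0-fold increase. WY14643 at 200 µM gave 3668, 3252 and 2498 in batch 1 and 1341, 1370 and 1419 in batch 2 (3.38 ± 0.22, adjusted p = 1.08e-31). Ranitidine at 4000 µM left 31.3, 22.6 and 37.3 in batch 1 and 24.0, 37.4 and 18.3 in batch 2 (-2.92 ± 0.25, adjusted p = 6.08e-22). Naproxen, indomethacin, caffeine, chloramphenicol, sulfasalazine and doxorubicin raised it by 1.62 to 2.64 at their high concentrations. Acetaminophen, valproic acid and isoniazid lowered it by -2.30, -1.89 and -1.81, and all wells of each treatment were apart from vehicle in both rats.

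Cyp2c7, a further retinoic acid hydroxylase, was read at 0.726 to 6.94 CPM in vehicle, that is 6 to 47 reads per well. Caffeine at 10000 µM raised it to 13.2, 13.1 and 9.14 in batch 1 and 10.6, 6.47 and 6.16 in batch 2, where 2 of 3 wells lay within the vehicle range. The log2 fold change was 2.12 ± 0.26 (adjusted p = 2.49e-13). It was 3.29 in batch 1 and 1.10 in batch 2, and against only the vehicle wells of the same plate in batch 2 it was 0.54 (adjusted p = 0.122). Acetaminophen at 10000 µM gave 4.95, 2.15 and 5.44 in batch 1 and 6.64, 4.38 and 10.0 in batch 2 (1.46 ± 0.27, adjusted p = 2.93e-07). The smallest of its 3 called values, -0.74 ± 0.31 after diclofenac at 400 µM (adjusted p = 0.0271), came from wells that overlapped vehicle in both rats, at 1.03 to 1.29 in batch 1 and 1.44 to 3.58 in batch 2. That call was not made per rat (adjusted p = 0.187).

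**Figure D3:**
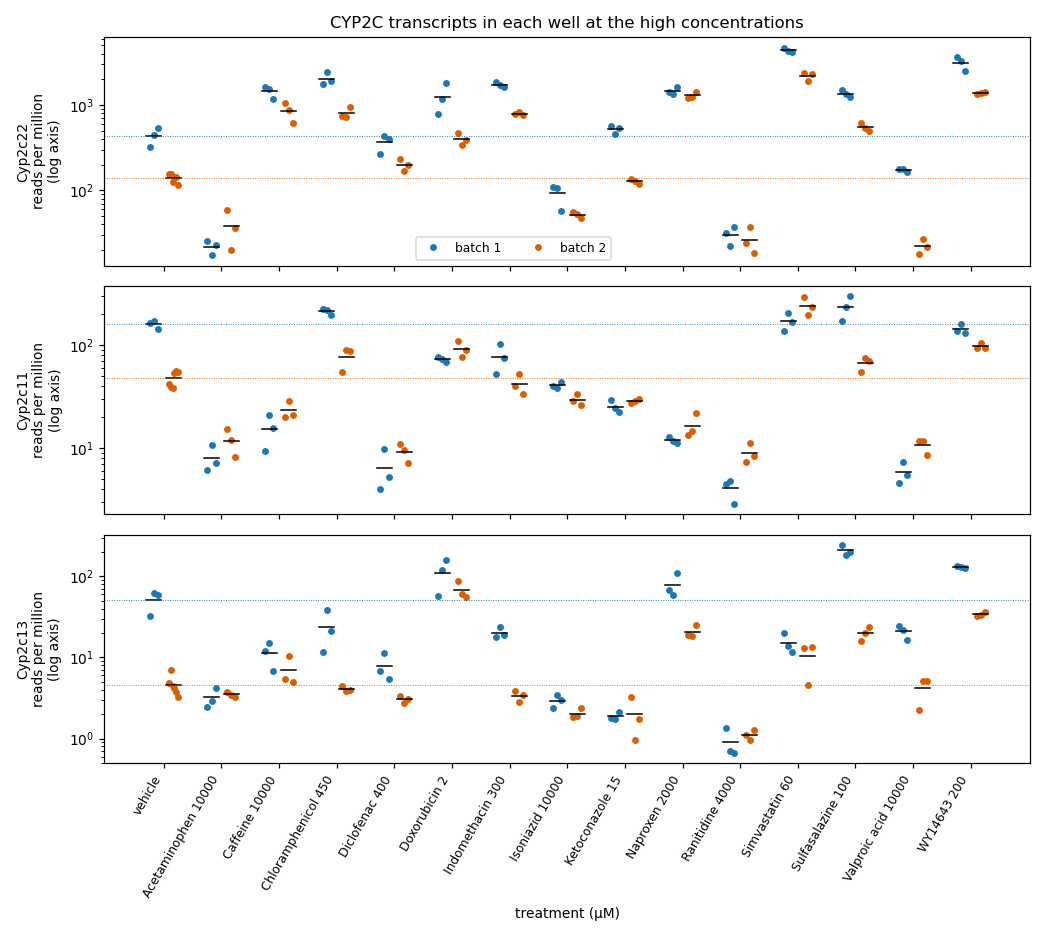
CPM (log axes) of Cyp2c22, Cyp2c11 and Cyp2c13 in every vehicle well and every well of the 14 high concentrations (µM), by batch; black lines are means and dotted lines the vehicle mean of each batch. Ranitidine 4000 puts all 3 genes below vehicle in both rats, and simvastatin 60 puts Cyp2c22 at 1938 to 4718, above every vehicle well.

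The CYP2D enzymes oxidise basic amine drugs, and both members in the WT table, Cyp2d4 and Cyp2d5, fell more often than they rose at the high concentrations. Cyp2d5 fell in 8 of 14 treatments, all of which were also called per rat. After ranitidine at 4000 µM it was read at 0.299, 0.710 and 1.00 CPM in batch 1 and 1.11, 2.27 and 0.916 in batch 2, against 6.96 to 11.4 and 8.12 to 16.3 in vehicle. The log2 fold change was -3.24 ± 0.21 (adjusted p = 8.64e-32). Ketoconazole at 15 µM left 2.91, 1.76 and 1.15 in batch 1 and 3.13, 2.49 and 3.87 in batch 2 (-1.99 ± 0.18, adjusted p = 1.88e-19). Diclofenac at 400 µM left 2.27, 2.26 and 1.72 in batch 1 and 5.51, 3.47 and 3.68 in batch 2 (-1.90 ± 0.18, adjusted p = 2.49e-19). All wells of these 3 treatments lay below vehicle. The only rise of Cyp2d5 at a high concentration that was called per rat was the one with WY14643 at 200 µM (1.06 ± 0.14, adjusted p = 7.10e-11).

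Cyp2d4 moved in a narrower range, from -1.80 to 0.47 at the high concentrations, with 9 lower and 3 higher calls. Diclofenac at 400 µM left 14.5, 19.4 and 18.7 in batch 1 and 28.8, 18.4 and 19.8 in batch 2, against 38.9 to 53.5 and 73.6 to 83.5 in vehicle (-1.80 ± 0.19, adjusted p = 5.13e-17). Valproic acid at 10000 µM left 32.4, 32.9 and 30.7 in batch 1 and 43.1, 26.4 and 27.5 in batch 2 (-1.22 ± 0.18, adjusted p = 8.05e-10). Ranitidine at 4000 µM left 26.8, 31.8 and 29.8 in batch 1 and 23.6, 18.5 and 22.0 in batch 2 (-1.19 ± 0.18, adjusted p = 2.87e-09). The treated wells of these 3 comparisons lay below vehicle in both rats. Of its calls, 6 lower and 0 higher were made per rat.

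Sequences from RefSeq (build GRCr8) of the region around the annotated start are printed for the 2 genes that fell most often with the rat as the unit, Cyp2c11 and Cyp2d5, and for the 2 with the largest rises, Cyp2e1 and Cyp2j4. Each run has 300 bases and is written 5′ to 3′ along the gene. Capitals mark matches, on either strand, to CAAAGNCCA (HNF4), TTNNGCAA (C/EBP), TTCNNNGAA (STAT) or GTTAATNAT (HNF1), where N is any base.
Cyp2c11, chr1:246174966-246175265, plus strand: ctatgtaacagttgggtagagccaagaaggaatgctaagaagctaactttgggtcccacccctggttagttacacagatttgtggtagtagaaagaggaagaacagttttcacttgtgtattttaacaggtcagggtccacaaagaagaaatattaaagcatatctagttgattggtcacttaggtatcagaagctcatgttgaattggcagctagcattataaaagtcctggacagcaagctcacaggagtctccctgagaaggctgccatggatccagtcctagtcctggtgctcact
Cyp2d5, chr7:115784438-115784737, minus strand: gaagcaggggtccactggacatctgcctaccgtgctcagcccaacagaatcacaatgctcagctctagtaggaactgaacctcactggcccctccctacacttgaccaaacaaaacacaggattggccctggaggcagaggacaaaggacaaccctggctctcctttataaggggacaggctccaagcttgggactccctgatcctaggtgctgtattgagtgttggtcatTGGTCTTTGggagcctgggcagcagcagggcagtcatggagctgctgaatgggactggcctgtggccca
Cyp2e1, chr1:205269717-205270016, plus strand: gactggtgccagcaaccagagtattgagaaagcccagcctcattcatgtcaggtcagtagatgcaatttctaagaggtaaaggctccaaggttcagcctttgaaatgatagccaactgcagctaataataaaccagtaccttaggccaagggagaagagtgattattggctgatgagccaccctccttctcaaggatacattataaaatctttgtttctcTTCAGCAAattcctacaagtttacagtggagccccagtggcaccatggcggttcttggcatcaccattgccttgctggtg
Cyp2j4, chr5:116322993-116323292, minus strand: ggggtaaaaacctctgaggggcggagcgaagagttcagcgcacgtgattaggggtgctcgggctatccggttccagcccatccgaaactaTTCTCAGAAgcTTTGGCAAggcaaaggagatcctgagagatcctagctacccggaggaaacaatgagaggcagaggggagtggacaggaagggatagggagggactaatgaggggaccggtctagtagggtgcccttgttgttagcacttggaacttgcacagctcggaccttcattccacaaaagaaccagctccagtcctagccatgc
Of the 9 members with a promoter in the RefSeq table, 3 held the C/EBP letters (Cyp2c22, Cyp2e1 and Cyp2j4), as did 10.6% of 33469 promoters. The HNF4 letters stood in 2 members (Cyp2a1 and Cyp2d5) and in 1.81% of all promoters, the STAT letters in Cyp2j4 and in 8.87%, and the HNF1 letters in 0 members and in 0.747%. The matches of Cyp2j4 to the STAT and C/EBP letters do not overlap. A match describes the letters only.

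Cyp2e1 was low in these cells and had the largest change of any member. In vehicle it was read at 2.73 to 3.75 CPM in batch 1 and 3.60 to 12.0 in batch 2. Caffeine at 10000 µM gave 434, 748 and 516 in batch 1 and 230, 532 and 547 in batch 2. Every treated well stood far above every vehicle well, and the log2 fold change was 6.83 ± 0.30 (adjusted p = 3.98e-51), a 114-fold increase. WY14643 at 200 µM gave 48.2, 48.2 and 56.9 in batch 1 and 31.0, 42.8 and 43.3 in batch 2 (3.45 ± 0.28, adjusted p = 1.18e-23). Naproxen at 2000 µM gave 31.7, 39.2 and 56.6 in batch 1 and 26.5, 32.1 and 39.0 in batch 2 (2.94 ± 0.28, adjusted p = 1.50e-18). Indomethacin at 300 µM (2.53) and acetaminophen at 10000 µM (1.82) were the remaining rises at the high concentrations, and all 5 rises were called per rat with wells apart from vehicle in both. The 1 fall was with doxorubicin at 2 µM, which left 1.84, 2.67 and 2.48 in batch 1 and 2.09, 2.41 and 2.77 in batch 2, below every vehicle well of the same batch (-1.10 ± 0.38, adjusted p = 0.0294), and was not called per rat (adjusted p = 0.436). At the low concentration of caffeine the value was -0.05 ± 0.33 (adjusted p = 1), and the difference between the concentrations was 6.88 (adjusted p = 3.22e-42).

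Cyp2j4, an epoxygenase of arachidonic acid, was the member whose vehicle means were closest between the rats in the WT assay, though not in the ST assay, and it rose in 7 of 14 high-concentration treatments and in 3 at the low concentrations, with all 10 rises called per rat. Caffeine at 10000 µM gave 216, 360 and 327 CPM in batch 1 and 172, 328 and 336 in batch 2, against 15.5 to 16.3 and 13.2 to 19.7 in vehicle. The log2 fold change was 4.24 ± 0.16 (adjusted p = 9.18e-58), an 18.9-fold increase. WY14643 raised it almost as much at 8 µM as at 200 µM. At 8 µM the batch 1 wells read 140, 128 and 112 and those of batch 2 read 95.8, 105 and 108 (3.05 ± 0.16, adjusted p = 9.67e-42). At 200 µM they read 142, 151 and 185 in batch 1 and 133, 130 and 118 in batch 2 (3.32 ± 0.16, adjusted p = 7.33e-46). The difference between the concentrations, 0.27 ± 0.16, did not pass (adjusted p = 0.362). For Cyp2e1 the same pair of concentrations gave 0.73, not called per rat (adjusted p = 0.251), and 3.45, a difference of 2.73 (adjusted p = 6.73e-12).

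Acetaminophen at 10000 µM separated Cyp2e1 and Cyp2j4. It raised Cyp2e1 to 10.3 to 12.3 CPM in batch 1 and 12.8 to 19.9 in batch 2, and it lowered Cyp2j4 to 0.805 to 3.54 and 1.35 to 4.14. Both changes put all treated wells outside the vehicle range in both rats. Ketoconazole, diclofenac and ranitidine at the high concentrations also lowered Cyp2j4, by -0.84 to -0.44, and of these only diclofenac was called per rat (adjusted p = 0.0147).

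**Figure D4:**
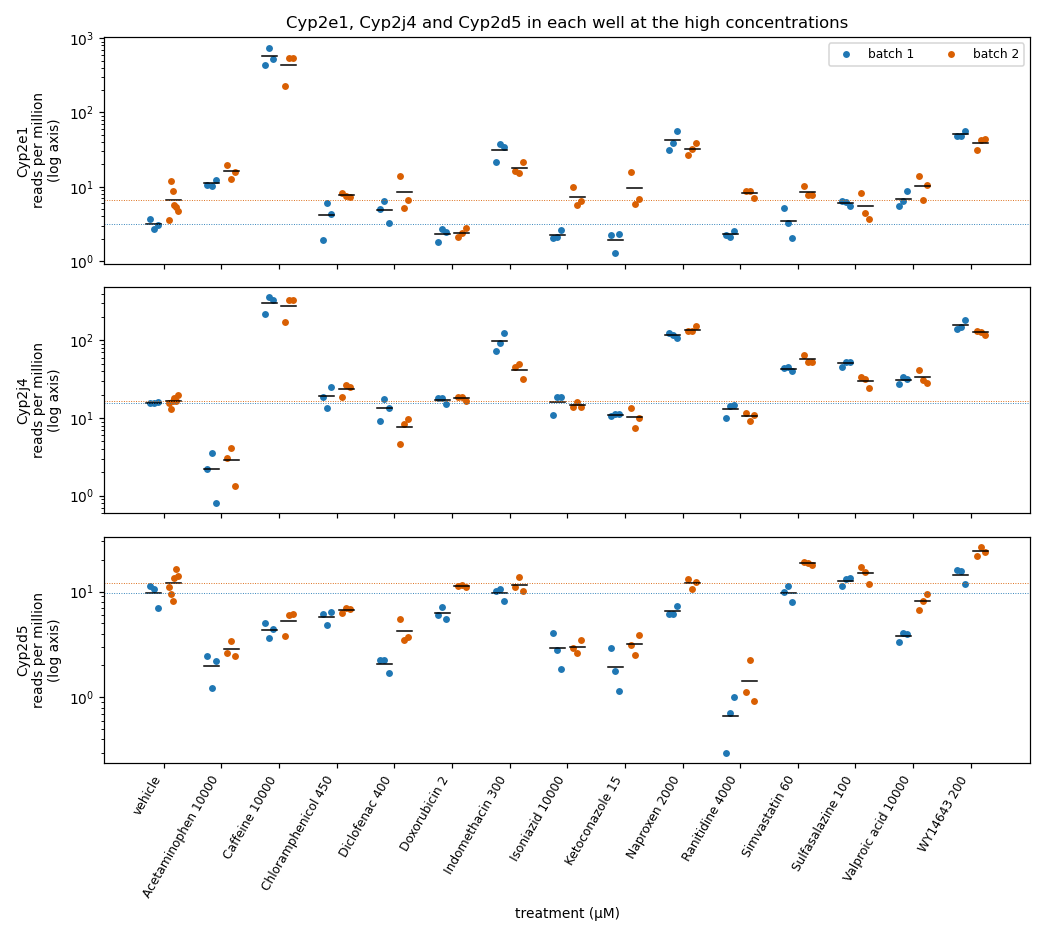
CPM (log axes) of Cyp2e1, Cyp2j4 and Cyp2d5 in every vehicle well and every well of the 14 high concentrations (µM), by batch; black lines are means and dotted lines the vehicle mean of each batch. Caffeine 10000 takes Cyp2e1 to 230 to 748 and Cyp2j4 to 172 to 360, and ranitidine 4000 takes Cyp2d5 to 0.299 to 2.27.

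Cyp2a1, a testosterone hydroxylase that predominates in females, was near the detection limit. In the ST assay it had a mean of 1.85 reads over all wells, below the minimum of 10, so it entered no fit. It was at 0 reads in 59 wells, including 3 of 9 vehicle wells, where 0 reads allows a level of up to 1.83 to 3.05 CPM, for counting error only. The highest vehicle well had 1.87 CPM, from 2 reads. The highest well of the series had 13.5, from 19 reads, after indomethacin at 300 µM in batch 1, where the 3 wells averaged 8.97 ± 4.71 (SD, n = 3). The same treatment averaged 1.62 ± 0.826 in batch 2. The WT table gives the same probe number under the name Cyp2a3, and there its highest well mean was 0.581 CPM, also for indomethacin at 300 µM in batch 1.

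The members called in each high-concentration treatment were read against the share of all genes called there in either direction. Acetaminophen moved all 8 members, 6 down and 2 up, with 78.9% of all genes called. Caffeine moved 7, 3 down and 4 up (66.2% of genes), and WY14643 at 200 µM moved 7, all up (51.4%). Diclofenac (71.7%) and ranitidine (66.2%) each lowered 6 and raised 0. Valproic acid lowered 5 and raised 1 (66.7%), and naproxen lowered 2 and raised 4 (53.8%). Ketoconazole lowered 5 (51.3%) and isoniazid 4 (34.7%), with 0 raised by either. Simvastatin (23.9%) and sulfasalazine (40.9%) each raised 5 and lowered 0. Indomethacin raised 4 (54.7%), doxorubicin lowered 2 and raised 2 (19.4%), and chloramphenicol lowered 2 and raised 1 (33.3%).

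The 20 higher calls at the low concentrations came from 6 chemicals. Naproxen at 80 µM raised 5 members where 16.0% of genes were called, and WY14643 at 8 µM raised 5 (56.2%). Valproic acid at 400 µM raised 4 (29.1%), namely Cyp2c13, Cyp2c22, Cyp2j4 and Cyp2d4. Sulfasalazine at 4 µM (17.4%), indomethacin at 12 µM (5.87%) and doxorubicin at 0.08 µM (1.32%) each raised 2. With the rat as the unit, 1 of the 5 calls for naproxen was made, 4 of the 5 for WY14643, 3 of the 4 for valproic acid and 0 for the other 3 treatments. The share of all genes called in that fit was not computed for these treatments. Low acetaminophen, caffeine, chloramphenicol, diclofenac, isoniazid, ketoconazole, ranitidine and simvastatin had 0 calls among the members.

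The high concentration was also compared with the low one of the same chemical. Of 112 pairs, 69 (61.6%) were called, 44 lower and 25 higher, where 40.8% of all pairs were. Ranitidine and acetaminophen each had 6 members lower at the high concentration, and acetaminophen also had 2 higher. For valproic acid 6 members were lower at 10000 than at 400 µM, led by Cyp2c11 (-3.91), Cyp2c22 (-3.75) and Cyp2c13 (-3.61). Naproxen split the members, with Cyp2c11 lower at 2000 than at 80 µM by -3.34 and Cyp2e1 higher by 2.90. For simvastatin, sulfasalazine and WY14643 every called member was higher at the high concentration.

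Hepatocyte markers moved with several of these changes. Their summed level was 0.216 of vehicle in batch 1 and 0.182 in batch 2 after diclofenac at 400 µM, and 0.396 and 0.296 after ranitidine at 4000 µM. It was 0.528 and 0.384 after valproic acid at 10000 µM, 0.515 and 0.528 after ketoconazole at 15 µM, and 0.576 and 0.492 after caffeine at 10000 µM, in which Cyp2e1 and Cyp2j4 rose. After naproxen at 2000 µM it was 0.518 and 0.481, and after acetaminophen at 10000 µM 0.632 and 0.744. In simvastatin at 60 µM it was 1.03 and 0.983. The ratios of the 14 high concentrations ran from 0.182 to 1.13. Across the high concentrations, 57 of 98 pairs of a hepatocyte marker and a treatment were called lower and 19 higher, where 25.5% and 25.4% of all pairs were. The markers did not move as one: after caffeine at 10000 µM, Fgb (fibrinogen beta chain) and Tat (tyrosine aminotransferase), named after their values were seen, had their highest log2 fold changes of the 14 treatments, at 2.09 and 3.23. In bulk wells a smaller share of hepatocytes and a smaller share of marker RNA within each hepatocyte cannot be told apart, and the part of the markers in the CYP2 changes was not tested. Kupffer cell and leukocyte markers ranged from 4.54 to 91.7 CPM over the wells of the high concentrations, with 50 of 84 pairs called lower and 7 higher. Stellate cell and fibroblast markers ranged from 2.16 to 136 CPM, and the 1 gene of that list that was tested, Col3a1, was called lower in 10 treatments and higher in 1. Biliary markers ranged from 4.36 to 74.2 CPM, with 9 of 28 pairs lower and 7 higher, all of them pairs of Epcam or Sox9. Their sum, mostly Epcam in vehicle wells, was 1.54 of vehicle in batch 1 and 1.51 in batch 2 after valproic acid at 10000 µM. Krt19, Krt7 and Cftr did not pass the filter. Endothelial markers stayed at 0 to 5.77 CPM and 0 of them passed the filter.

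The size of the response differed between the 2 rats most often for the male-specific genes. The interaction of batch and treatment was called for 38 of 232 pairs of a member and a comparison with vehicle (16.4%), against 2.36% of all pairs. Cyp2c11 and Cyp2c13 held 13 each of these 38, all with a more positive value in batch 2. For Cyp2c11 after ranitidine at 4000 µM the log2 fold change was -5.15 in batch 1 and -2.33 in batch 2, a difference of 2.80 (interaction adjusted p = 3.52e-09). For Cyp2c13 after acetaminophen at 10000 µM it was -3.51 in batch 1 and 0.03 in batch 2, so the call for acetaminophen rested on batch 1. Cyp2c22 had 5 such calls, Cyp2j4 3, Cyp2e1 2, Cyp2c7 and Cyp2d4 1 each, and Cyp2d5 0, with a median difference of 0.20 for Cyp2d5. The part of the vehicle levels in these differences was not tested.

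**Figure D5:**
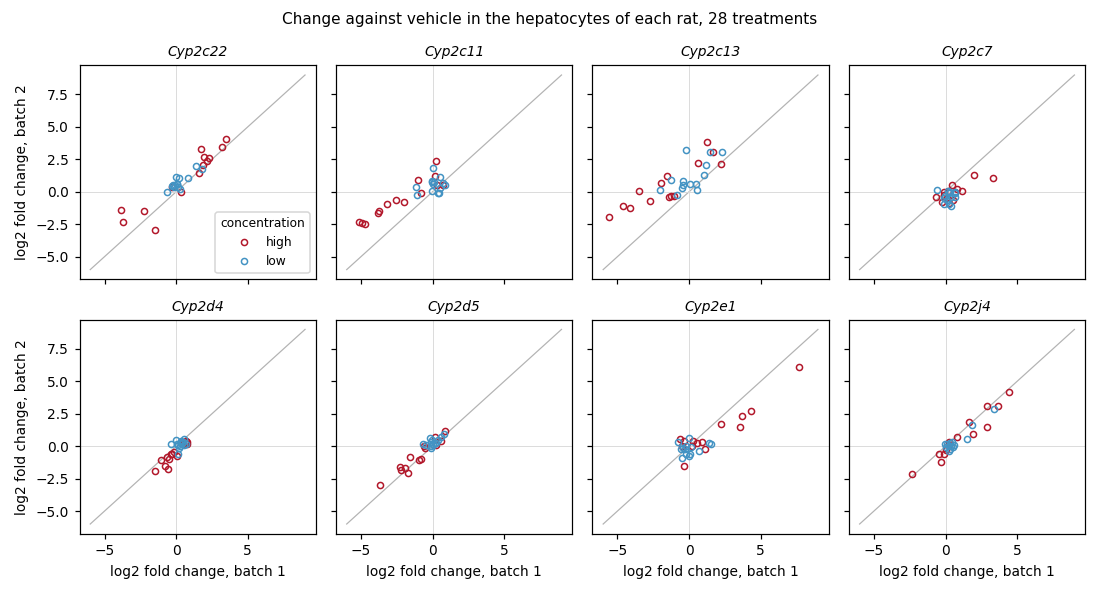
Log2 fold change against vehicle in batch 1 (horizontal) and batch 2 (vertical) for each of 8 CYP2 transcripts, 14 high and 14 low concentrations; the grey line marks equal values. Cyp2c11 and Cyp2c13 lie above the line in 22 and 26 of 28 treatments, as do Cyp2c22 in 23 and Cyp2d5 in 22.

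The ST assay re-read the same lysates with its own libraries for 5 members. It called 25 of 70 pairs lower and 21 higher at the high concentrations, where 29.7% and 27.9% of all pairs were. At the low concentrations it called 2 lower and 12 higher (5.57% and 6.33% of all pairs). The 2 lower calls were Cyp2c11 after WY14643 at 8 µM (-0.75, adjusted p = 0.0222) and Cyp2d5 after simvastatin at 2.4 µM (-0.57, adjusted p = 0.0185). Over the 28 treatments the calls of the assays were the same for 27 treatments in Cyp2j4 and Cyp2c13, 25 in Cyp2c11, 24 in Cyp2e1 and 23 in Cyp2d5, and 0 calls were opposite. For Cyp2e1 after caffeine at 10000 µM the ST value was 6.95 ± 0.30, and for Cyp2c11 after ranitidine it was -3.61 ± 0.38.

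Among other genes whose symbol starts with Cyp2, 15 of 30 passed the filter, a set that also holds Cyp20a1 and Cyp27a1. A gene with few reads in vehicle can pass this filter through treated wells in which it is high, so the counts here were also made, a choice added after the data were seen, over the genes whose vehicle wells alone had a mean of at least 10 reads. All 8 members met that, and 13 of the 15 other genes did, Cyp2b1 (0 to 0.546 CPM in vehicle) and Cyp2r1 being left out. Of the 182 pairs of the 13 genes with a high concentration, 74 were called lower and 57 higher, where 25.9% and 25.2% of all such pairs were. With the 2 genes left in, 77 of 210 were lower and 69 higher. The phenobarbital-inducible Cyp2b2, at 0.880 to 5.83 CPM in vehicle, rose in 9 of 14 treatments and fell in 3. Cyp2d2 fell in 10 of 14, with a median of -1.58. Of the 70 pairs of a high concentration with Alas1 or 1 of 4 genes of electron transfer or heme binding (Por, Cyb5a, Cyb5b and Pgrmc1), 42 were called higher and 9 lower, where 25.4% and 25.5% of all pairs were. Alas1, the first enzyme of heme synthesis, rose in 11 of 14 treatments and Por in 9, with medians of 0.72 and 1.13, and Cyb5a rose in 8 with a median of 0.31.

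Transcription factors and receptors that act on CYP2 genes were mixed, with 79 of 224 pairs lower and 70 higher at the high concentrations over the 16 factors whose vehicle wells met the filter, where 25.9% and 25.2% of all such pairs were. Nr0b2, at 0.450 to 1.79 CPM in vehicle, did not meet it and was left out of that count. Ppara had a median of -0.88 and was called lower in 7 and higher in 5. Cebpb, an acute-phase C/EBP factor, rose in 11 with a median of 0.85, and Onecut1 fell in 12 with a median of -0.77. In medium alone 4 of the 17 measured factors were called higher and 0 lower, and 2 of 5 electron donor genes were called higher, where 12.6% of all genes were called.

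Likeness of profile was measured as Pearson's r of the log2 fold changes over the 28 treatments, which share their vehicle wells, and is given as a description. Among the members the closest pairs were Cyp2d4 with Cyp2d5 (r = 0.858), Cyp2c11 with Cyp2d4 (0.847) and Cyp2c13 with Cyp2d5 (0.837). Cyp2e1 was closest to Cyp2j4 (0.691) and least like Cyp2c11 (-0.312). Outside the members, the gene most like Cyp2c11 was Otc, the urea cycle enzyme ornithine carbamoyltransferase (0.935), and that most like Cyp2c22 was Sult2a2, a sulfotransferase (0.908). Cyp2d5 was most like Cpn2 (0.957), Cyp2d4 like Mbl1 (0.928), Cyp2j4 like Rnf152 (0.922), Cyp2e1 like Ddi2 (0.904), Cyp2c13 like Dhrs7l1 (0.882) and Cyp2c7 like Cep85l (0.863).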

How the data were processed

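TempO-Seq counts reads of ligated probe pairs in cell lysate. The authors sequenced 372 libraries, aligned the reads with STAR 2.5.3a and deposited raw counts per probe for the WT and ST assays, with no normalization; the submitters' notes name the rn6 build. Reads carry no molecular identifiers, so limits drawn from them cover counting error only. CPM (scaled to the total of all probes of a well) were computed for levels. Probes of a gene were added, and genes whose mean over all wells reached 10 counts were fitted with edgeR 4.0.16 (quasi-likelihood test, TMM factors, batch as a term, R 4.3.3), two-sided, with Benjamini-Hochberg adjustment over the 10191 genes tested in the WT assay or 1760 in the ST assay. A gene was called at an adjusted p under 0.05. A further fit added the wells of each treatment and rat. Alternatives were DESeq2 1.42.0, other scalings, no filter, each batch, plate-matched vehicle and leaving out wells. The scripts were tested on simulated data. The members and lists were chosen with earlier results of these data known. All members are named, each with its 3 largest changes in full, and from the lists of other CYP2 genes, electron donors and transcription factors the 3 genes with the largest absolute median. Of these, Cyp2b1 is named without its median, since its vehicle wells did not meet the filter. Marker lists are given by counts and sums, with Krt7, Krt19, Cftr, Epcam, Sox9, Col3a1, Fgb and Tat also named. RefSeq promoters (GRCr8) were used only for their letters.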

Additional observations from a re-analysis of the deposited data

Results flagged for a closer look

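Of 28 groups of 6 wells of vehicle or medium in batch 2, 2 held a well far from the others, where chance alone marks about 1 group in 20. In the ST assay the highest medium well of Cyp2d5 read 43.6 CPM, and the highest vehicle well of Cyp2j4 read 24.3.

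The log2 fold change against vehicle differed between the rats by at least 1 with an adjusted interaction p under 0.05 in edgeR for 36 of 232 pairs of member and comparison, and in 9 of the 36 the signs were opposite. The differences below are batch 2 minus batch 1. For Cyp2c11 the difference was 2.24 after acetaminophen at 10000 µM, 2.26 after caffeine at 10000 µM, 2.25 after diclofenac at 400 µM, 1.76 after doxorubicin at 0.08 µM, 1.94 after doxorubicin at 2 µM, 1.22 after isoniazid at 10000 µM, 1.92 after ketoconazole at 15 µM, 2.25 after naproxen at 2000 µM, 2.80 after ranitidine at 4000 µM, 1.52 after simvastatin at 2.4 µM, 2.18 after simvastatin at 60 µM, 2.52 after valproic acid at 10000 µM and 1.09 after WY14643 at 200 µM. For Cyp2c7 the difference was -2.20 after caffeine at 10000 µM. For Cyp2c13 the difference was 3.54 after acetaminophen at 10000 µM, 2.65 after caffeine at 10000 µM, 2.04 after diclofenac at 400 µM, 3.42 after doxorubicin at 0.08 µM, 2.59 after doxorubicin at 2 µM, 2.87 after isoniazid at 10000 µM, 3.52 after ketoconazole at 15 µM, 1.55 after naproxen at 2000 µM, 2.24 after ranitidine at 160 µM, 3.62 after ranitidine at 4000 µM, 2.15 after simvastatin at 2.4 µM, 2.79 after simvastatin at 60 µM and 1.65 after WY14643 at 8 µM. For Cyp2c22 the difference was 2.47 after acetaminophen at 10000 µM, 1.17 after doxorubicin at 0.08 µM, 1.51 after naproxen at 2000 µM, 1.34 after ranitidine at 4000 µM and -1.43 after valproic acid at 10000 µM. For Cyp2e1 the difference was -1.51 after caffeine at 10000 µM and -2.03 after indomethacin at 300 µM. For Cyp2d4 the difference was -1.27 after ranitidine at 4000 µM. For Cyp2j4 the difference was -1.45 after indomethacin at 300 µM. The part of the rat, of the library preparation and of the sequencing run in these differences cannot be told apart.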

How the results depend on the processing

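Of the 98 values called for a member in the WT assay, 98 kept direction and call with DESeq2 or with its size factors, 95 with upper quartile factors, 89 with library totals, 94 without the filter on low counts and 66 with the rat as the unit, and 79 of 96 against vehicle of the same plate in batch 2. Library totals shifted the median of all genes by up to 0.407 on the log2 scale, in acetaminophen at 10000 µM, and 0 calls of a member were reversed by a scaling.

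Members called lower at the low concentrations, 0 as reported, numbered 1 with library totals, 1 with upper quartile factors, 4 in batch 1 alone, 1 in batch 2 alone, 3 with only the wells of the treatment and vehicle, and 2 in the ST assay. They numbered 5 with the vehicle wells of the same plate in batch 2, and 0 to 1 when a well was left out. Members called higher at the low concentrations, 20 as reported, numbered 8 with the rat as the unit, 10 at an absolute log2 fold change of at least 1, and 12 to 19 when a treated or vehicle well was left out. In medium alone the 2 higher calls became 0 with the rat as the unit, 1 in batch 1 alone and 0 at an absolute log2 fold change of at least 1, and the 0 lower calls became 1 with only the wells of medium and vehicle. At the high concentrations, leaving out a well gave 35 to 42 lower and 30 to 35 higher calls. Cyp2c13 reversed after acetaminophen at 10000 µM, to 0.026 in batch 2 alone and 0.26 with vehicle wells of the same plate, and after doxorubicin at 0.08 µM, to -0.21 in batch 1 alone. The cause was not tested. No paired analysis was possible between single wells because the labels give them no number shared across treatments, while the batch term of the fits compared treatment and vehicle within each rat. Each member was read by 1 probe, so no fit by probe was run. Cyp2c7 and Cyp2a1 had the fewest reads.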
